A study of Mus musculus with 6 samples.

Results

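Interferon-stimulated antiviral genes are the transcripts that cells switch on when a type I or type III interferon reaches them, and their products sense viral RNA, block viral translation, degrade RNA or stop virus from entering or leaving the cell. 40 of them, chosen by name, are described here in B cells stimulated through TLR7. The list covers RNA and DNA sensors, the ISG15 conjugation system, the IFIT and OAS families, further antiviral effectors, the ADP-ribosyltransferase genes with Dtx3l, the LY6 surface proteins and 8 other genes that carry the name interferon-induced or are known for it. Of the 40, 39 were among the 23420 gene symbols measured and the symbol Ifi27 was not. 38 passed the filter on low values, at least 0.5 CPM (read counts scaled to library size) in at least 3 libraries, and were tested among 11844 genes.

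Transcripts were measured by RNA-seq in bead-purified splenic B cells of male MRL/lpr (MRL.Faslpr) mice aged 5 to 7 weeks. MRL/lpr mice carry the lpr allele of Fas and develop a lupus-like disease. All cells, stimulated or not, were TLR9-/- and TLR7 wild type. They were kept for 4 h without a stimulus (unstimulated, 3 libraries) or with CL097, a small-molecule agonist of TLR7, at 5 µg/ml (CL097, 3 libraries), and the libraries of each condition are numbered 1 to 3. The B cells were what remained after cells with Gr-1, CD11b, CD11c, CD43, CD4 or CD8 on their surface had been removed with antibodies and beads, so they are a mixture of B cell subsets with whatever that selection left. Between 10906 and 10997 genes per library were at 1 CPM or more, and the depth each library reached is unknown. Each library was quantile-normalized, so a change is relative to the other genes of its library. No interferon-treated library was analysed here, and the name of the gene group rests on what the genes are known for.

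Type I interferon binds the receptor made of IFNAR1 and IFNAR2. The kinases JAK1 and TYK2 then activate a transcription factor complex, with STAT2 and IRF9 among its members, that binds a promoter element called the interferon-stimulated response element (ISRE). TLR7, an endosomal receptor for single-stranded RNA, signals through MyD88 to NF-kB and to the interferon regulatory factors IRF5 and IRF7, and plasmacytoid dendritic cells are the cell type best known for releasing type I interferon on this route.

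Few of these genes rose within 4 h of CL097, and more of them fell than rose. In a limma fit paired by replicate number, 3 of the 38 tested genes were called higher (7.89%), where 25.9% of all tested genes were. 16 were called lower (42.1%), where 25.8% of all tested genes were. Either call was given to 19 of the 38, where 51.7% of all tested genes had one. A call needed a Benjamini-Hochberg adjusted p under 0.05 over all tested genes and a log2 fold change over 0.5 in size. The genes called higher were Ifitm3, Isg15 and Ifih1. The genes called lower, from the largest fall, were Samd9l, Sp100, Ly6a, Ifit3, Herc6, Cmpk2, Oas2, Ddx58, Ly6e, Ifit2, Dtx3l, Rsad2, Oas1a, Xaf1, Oas3 and Ifi44. The median log2 fold change (CL097 minus unstimulated) was -0.35 over the 38 genes and 0.0018 over all tested genes. Of the 38 values 27 were negative, where 5913 of the 11844 tested genes had a negative value. The calls depended on the pairing: without the replicate number in the model 1 of the 38 genes was called higher (24% of all genes) and 7 of the 38 were called lower (23.6% of all genes), 8 in all (47.6% of all genes). The lower calls were then no more frequent than among all tested genes.

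**Figure D1:**
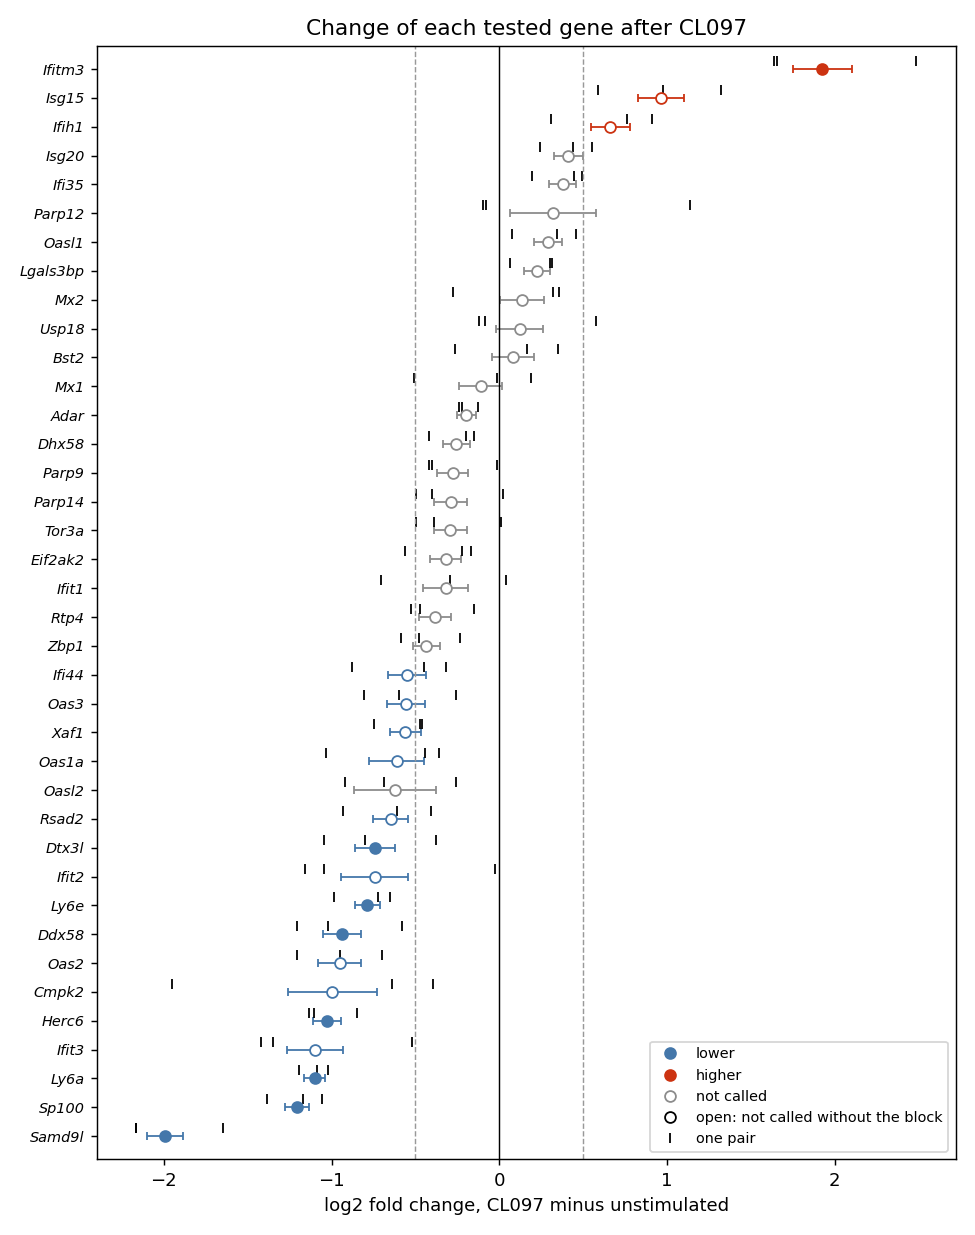
Log2 fold change of each of the 38 tested genes, CL097 minus unstimulated, in the fit paired by replicate number. Points are the estimates with their standard error, small ticks are the 3 single pairs, and the colour gives the call: 3 genes lie to the right of the threshold with a call, 16 to the left, and 19 have no call.

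The replicate libraries set the limit of what can be said gene by gene. The 3 CL097 values lay all above the 3 unstimulated values in 1 gene, Ifitm3 (33.4% of all tested genes did so), and all below them in 7 genes, Samd9l, Sp100, Ly6a, Herc6, Ddx58, Ly6e and Dtx3l (32.4% of all tested genes). Within pairs the picture was tighter. 7 genes were higher under CL097 in all 3 pairs (39.7% of all tested genes), 23 were lower in all 3 pairs (40% of all tested genes) and 8 were mixed. Of the 19 genes without a call, 12 had an adjusted p under 0.05 with a log2 fold change no larger than 0.5 in size. Over all tested genes this held for 1770 of the 5723 without a call.

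The promoters of these genes were read for the ISRE, because that is the element through which the interferon signal is known to reach them. Windows from 250 bases before to 50 bases after the annotated start were available in RefSeq (GRCm38.p6) for 27 of the 40 genes. The ISRE core searched was GAAA, then any 2 bases, then GAAA again, on either strand, and overlapping matches each count. It was present in 12 of the 27 windows (44.4%), and in 3.78% of the 8861 tested genes that had a window. By call, it was in 3 of 3 windows of genes called higher, 5 of 13 of genes called lower and 3 of 10 of genes without a call. The remaining match was in Oas1g, which was not tested. A match describes the letters of the reference genome and does not show binding, and a window without one says nothing of elements elsewhere.

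All 8 windows of called genes with a match are written out here as 100 bases around it, so that the sequence of the 3 genes that rose can be set beside that of 5 genes that fell. Each is written in the direction of the gene, and capitals mark the ISRE core (TTTC, 2 bases and TTTC is the same core read from the opposite strand). The windows of the genes called higher are chr7:141010695-141010794 (minus strand) for Ifitm3, chr4:156200836-156200935 (minus strand) for Isg15 and chr2:62646206-62646305 (minus strand) for Ifih1.
Ifitm3: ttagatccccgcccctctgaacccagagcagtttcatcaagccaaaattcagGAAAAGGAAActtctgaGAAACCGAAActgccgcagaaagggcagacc
Isg15: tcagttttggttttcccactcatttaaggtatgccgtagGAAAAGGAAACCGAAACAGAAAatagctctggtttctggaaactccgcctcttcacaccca
Ifih1: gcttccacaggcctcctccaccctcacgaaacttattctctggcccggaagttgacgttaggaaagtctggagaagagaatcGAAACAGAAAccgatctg
The windows of the genes called lower are chr4:40239776-40239875 (minus strand) for Ddx58, chr19:34583345-34583444 (plus strand) for Ifit3, chr12:26456518-26456617 (minus strand) for Rsad2, chr5:120907488-120907587 (minus strand) for Oas1a and chr5:120777680-120777779 (minus strand) for Oas3.
Ddx58: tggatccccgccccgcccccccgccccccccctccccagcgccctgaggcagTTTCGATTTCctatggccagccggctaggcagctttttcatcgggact
Ifit3: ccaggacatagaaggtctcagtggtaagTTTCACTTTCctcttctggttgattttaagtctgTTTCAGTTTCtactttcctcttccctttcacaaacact
Rsad2: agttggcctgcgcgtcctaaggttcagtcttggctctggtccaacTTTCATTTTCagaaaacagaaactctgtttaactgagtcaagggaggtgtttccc
Oas1a: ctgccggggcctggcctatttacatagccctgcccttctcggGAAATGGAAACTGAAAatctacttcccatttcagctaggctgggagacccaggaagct
Oas3: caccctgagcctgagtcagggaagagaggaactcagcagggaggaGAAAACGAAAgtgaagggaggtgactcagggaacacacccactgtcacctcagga
In Isg15 the core occurs 3 times in overlapping copies, in Ifitm3 and Ifit3 it occurs 2 times in separate copies, in Oas1a 2 times in overlapping copies, and in the other 4 windows 1 time. The ISRE core therefore stood in promoters of genes that moved in opposite directions.

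**Figure D2:**
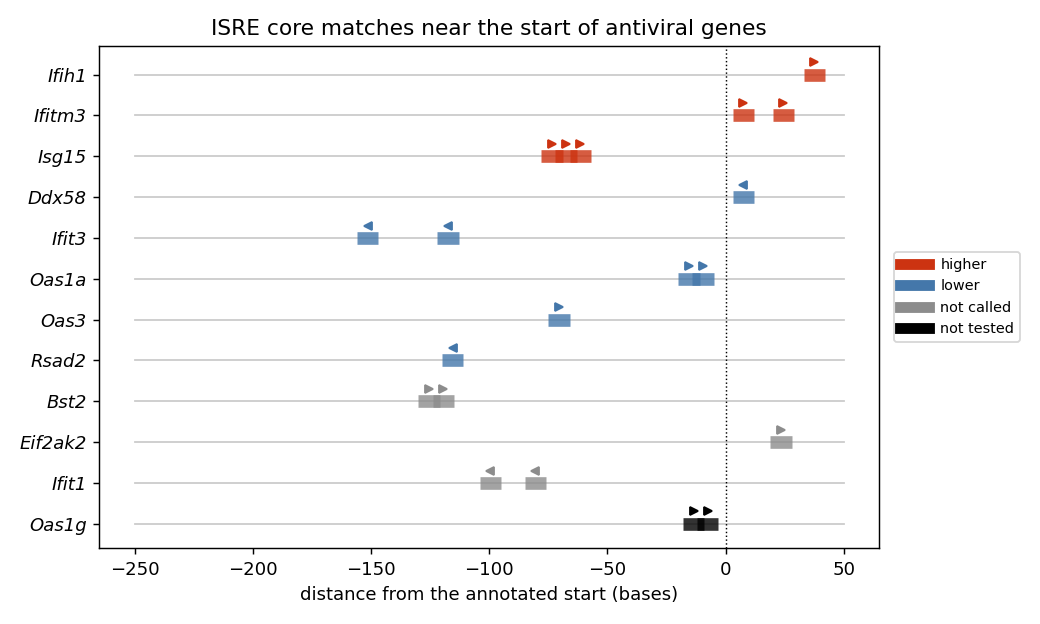
Position of each ISRE core match relative to the annotated start (x axis, bases) in the promoter windows that hold one, 1 line per gene, coloured by call. Arrowheads give the strand of the match. Matches of genes called higher, called lower and not called lie on both sides of the start.

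The GAS core and the NF-kB consensus were searched in the same windows. The GAS core TTCNNNGAA (N is any base), an element best known from the interferon gamma response, was in 8 of the 27 windows (29.6%) and in 8.49% of tested genes with a window. The NF-kB consensus was in 6 of 27 (22.2%) and in 12.3% of tested genes with a window. Of the 3 genes called higher, 1 window held the GAS core and 1 the NF-kB consensus, both of them that of Ifitm3. Among genes called lower each element was in 2 of 13 windows. Among genes without a call the GAS core was in 5 of 10 windows and the NF-kB consensus in 3 of 10.

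The RNA and DNA sensors moved apart. Ifih1 encodes MDA5, which recognises long double-stranded RNA, and its transcript was at 47.3, 65.7 and 117 CPM in the unstimulated libraries and 88.8, 112 and 145 CPM in the CL097 libraries. Each CL097 library was higher than the unstimulated library of its number, while the groups overlapped (log2 fold change 0.66, SE 0.12, adjusted p = 0.00193, limma paired, and adjusted p = 0.105 without pairing). Ddx58 encodes RIG-I, the sensor of short RNA with an uncapped triphosphate end, which acts through the same adaptor as MDA5. It was at 277, 367 and 466 CPM in the unstimulated libraries and 120.2, 245 and 230.1 CPM in the CL097 libraries. All CL097 values were below all unstimulated values (log2 fold change -0.94, SE 0.11, adjusted p = 0.000282). The log2 fold changes of the other sensors were -0.43 for Zbp1, a receptor for Z-form nucleic acid, -0.32 for Eif2ak2, the kinase PKR that halts translation, and -0.26 for Dhx58, which encodes LGP2, a helicase related to RIG-I and MDA5. None of these 3 had a call in the paired fit.

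In the ISG15 system the modifier and its ligase moved in opposite directions. Isg15 encodes a ubiquitin-like protein that is attached to other proteins during the interferon response. It was at 18.0, 36.1 and 58.4 CPM in the unstimulated libraries and 45.0, 71.1 and 87.9 CPM in the CL097 libraries. Every pair rose, though the lowest CL097 library lay below the highest unstimulated one (log2 fold change 0.96, SE 0.14, adjusted p = 0.000648, limma paired, and adjusted p = 0.0761 without pairing). Herc6, the main ligase for ISG15 in the mouse, was at 70.4, 108 and 148 CPM in the unstimulated libraries and 32.0, 60.0 and 69.1 CPM in the CL097 libraries. The groups did not overlap (log2 fold change -1.03, SE 0.08, adjusted p = 4.05e-05). Usp18 removes ISG15 from proteins and also holds back the interferon receptor, and it was at 73.5 ± 30.6 CPM unstimulated and 79.2 ± 26.5 CPM under CL097 (SD, n = 3), a log2 fold change of 0.12 with no call.

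The IFIT genes share a cluster on chromosome 19 and encode RNA-binding proteins that block translation of viral RNA. All 3 members had negative log2 fold changes, where 5913 of the 11844 tested genes did. Ifit3 (chr19:34583531-34588731, GRCm38) was at 103, 158 and 290.0 CPM in the unstimulated libraries and 38.4, 110.4 and 114 CPM in the CL097 libraries. It was lower in every pair, but library 1 of the unstimulated group was below libraries 2 and 3 of the CL097 group (log2 fold change -1.10, SE 0.17, adjusted p = 0.000908, limma paired, and adjusted p = 0.0827 without pairing). Ifit2 was at 111, 149.8 and 311 CPM in the unstimulated libraries and 49.9, 147 and 151 CPM in the CL097 libraries. Its pair 2 hardly differed and its pairs 1 and 3 fell (log2 fold change -0.74, SE 0.20, adjusted p = 0.0139, limma paired, and 0.225 without pairing). Without number 3 the adjusted p of Ifit2 was 0.0960. Ifit1, with a log2 fold change of -0.32, had no call. Ifit3 has a near-identical copy, Ifit3b, so its level depends on how shared reads were counted.

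The OAS family makes oligoadenylates that switch on RNase L, an enzyme that cuts RNA. Of its 5 tested genes 3, Oas2, Oas3 and Oas1a, were called lower, where 25.8% of all tested genes were. Oas2 was at 15.9, 40.1 and 43.8 CPM in the unstimulated libraries and 9.77, 20.8 and 18.9 CPM in the CL097 libraries. It fell in every pair, and the unstimulated library 1 overlapped the CL097 group (log2 fold change -0.95, SE 0.13, adjusted p = 0.000455, limma paired, and 0.0861 without pairing). Oas1a (log2 fold change -0.61, SE 0.17, adjusted p = 0.0137) was at 16.6 ± 7.04 CPM unstimulated and 10.4 ± 2.14 CPM under CL097. Oas3 (log2 fold change -0.55, SE 0.11, adjusted p = 0.00395) was at 68.4 ± 23.2 CPM unstimulated and 45.8 ± 10.0 CPM under CL097. In the fit without pairing their adjusted p values were 0.115 for Oas1a and 0.0839 for Oas3, and both calls were lost without number 3, where the log2 fold changes were -0.40 and -0.43. The OAS-like genes carried no call: Oasl2 had a log2 fold change of -0.62 (adjusted p = 0.0573), and Oasl1, which in the mouse restrains translation of Irf7, had one of 0.29. Oas1g was under the filter, with log2 CPM between -4.90 and -0.61 over the 6 libraries, and was not tested. Oas1a and Oas1g are close copies, and their reads may be split between them.

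**Figure D3:**
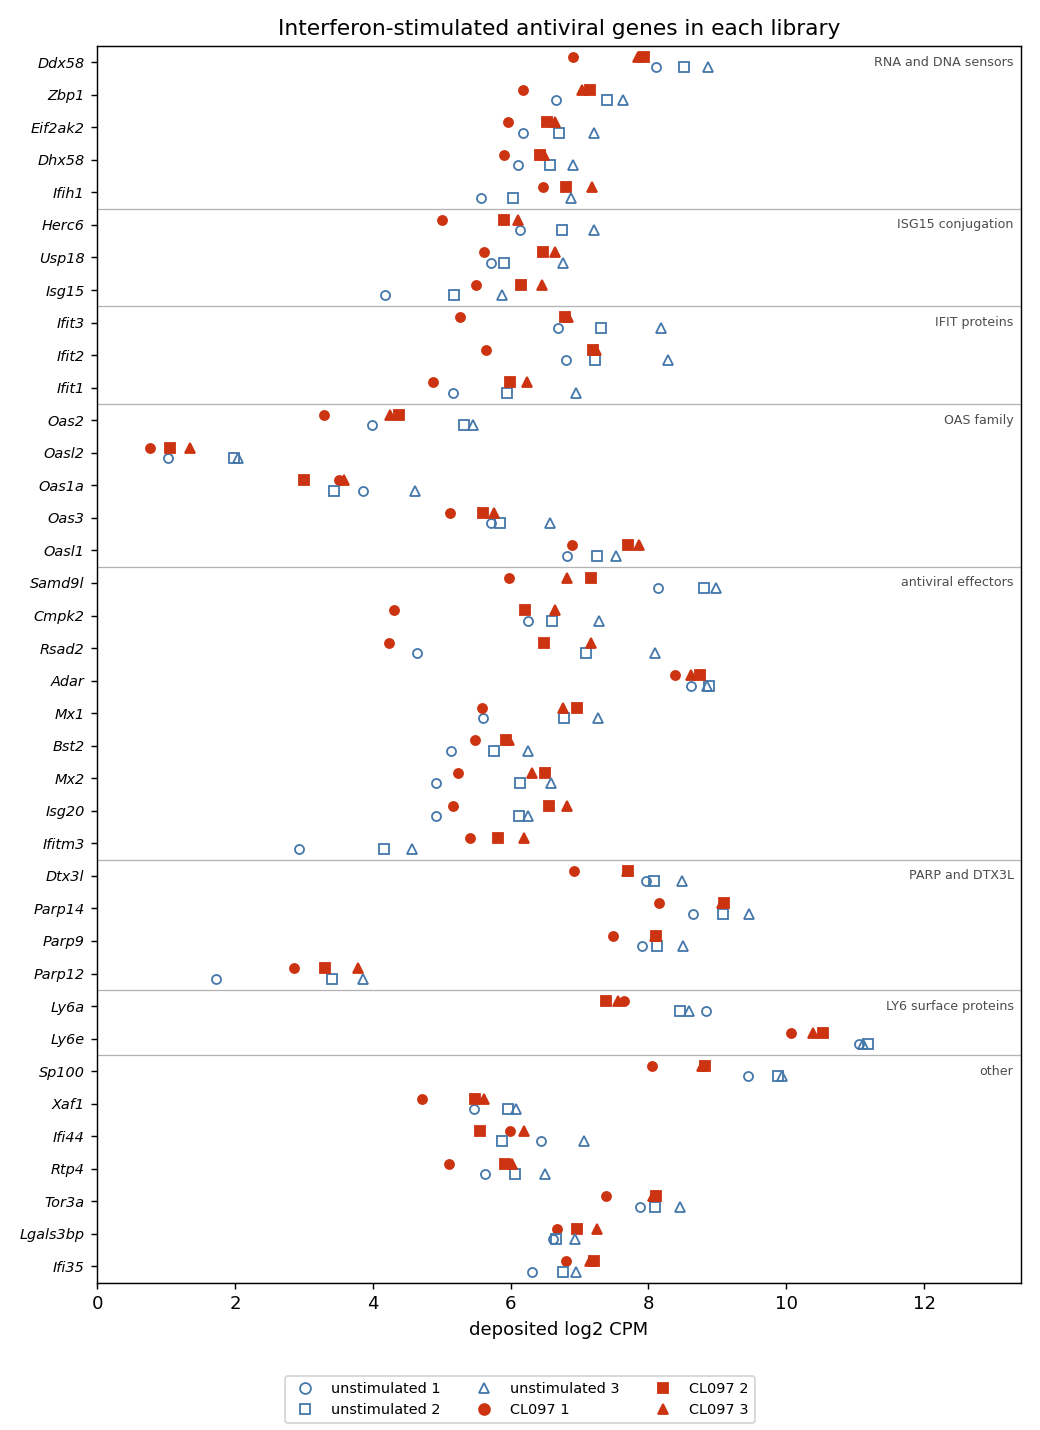
Deposited log2 CPM (x axis) of the 38 tested genes in each of the 6 libraries, grouped by role. Open blue symbols are unstimulated and filled red symbols CL097 libraries, and the shape gives the replicate number (circle 1, square 2, triangle 3). The CL097 symbols of Ifitm3 all lie to the right of its unstimulated symbols, those of Samd9l and Sp100 all to the left, and in most genes the circles are leftmost.

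Among the other antiviral effectors, Ifitm3 had the largest rise and Samd9l the largest fall of the 38 genes. Ifitm3 encodes a membrane protein that keeps enveloped viruses from fusing with endosomes, and was at 7.63, 18.0 and 23.6 CPM in the unstimulated libraries and 42.8, 56.5 and 73.6 CPM in the CL097 libraries. It was 3.80-fold higher under CL097 and the groups did not overlap (log2 fold change 1.93, SE 0.17, adjusted p = 6.46e-05). Its neighbour in the same family, Ifitm2, is among the further interferon-stimulated genes below. Samd9l, a restriction factor for poxviruses that also restrains cell growth, was at 283, 449 and 506 CPM in the unstimulated libraries and 63.1, 143 and 113 CPM in the CL097 libraries. It was 3.98-fold lower and the groups did not overlap (log2 fold change -1.99, SE 0.11, adjusted p = 5.96e-06).

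Rsad2 and Cmpk2 lie 12751 bases apart on chromosome 12 and their products work in one route: CMPK2 is a mitochondrial nucleotide kinase and viperin, the product of Rsad2, turns its product into a nucleotide that ends viral RNA chains. Rsad2 was at 25.1, 137 and 272 CPM in the unstimulated libraries and 18.9, 89.7 and 143 CPM in the CL097 libraries. The unstimulated libraries alone spanned 3.44 log2 units, so that the fall was seen in every pair and not between the groups (log2 fold change -0.65, SE 0.11, adjusted p = 0.00132, limma paired, and 0.586 without pairing). Cmpk2 was at 6.25, 6.60 and 7.29 log2 CPM in the unstimulated libraries and 4.30, 6.20 and 6.64 log2 CPM in the CL097 libraries. Library 1 set much of its fall (log2 fold change -0.996, SE 0.27, adjusted p = 0.0132, limma paired, and 0.16 without pairing), and without number 1 the log2 fold change was -0.52. The GTPases Mx1 (-0.11) and Mx2 (0.13), which trap viral nucleoproteins, had small log2 fold changes with no call. The same was true of Adar (-0.20), which edits double-stranded RNA, Bst2 (0.08), which tethers budding virus to the cell, and the exonuclease gene Isg20 (0.41).

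Dtx3l, a ubiquitin ligase that works in a complex with PARP9, was at 251, 271 and 359 CPM in the unstimulated libraries and 122, 208 and 206 CPM in the CL097 libraries. The groups did not overlap (log2 fold change -0.74, SE 0.12, adjusted p = 0.00117). Its partner Parp9 had a log2 fold change of -0.28 with no call. Their annotated spans overlap by 682 bases, and the strand setting of the counting is not given in the sources used here, so reads of that overlap cannot be told apart. The other ADP-ribosyltransferase genes had log2 fold changes of -0.29 for Parp14 and 0.32 for Parp12, neither called.

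Both LY6 genes fell, and they varied less between replicates than most others. Ly6a encodes Sca-1, a surface protein of stem cells and activated lymphocytes, and was at 459, 353 and 385 CPM in the unstimulated libraries and 200.3, 166 and 189 CPM in the CL097 libraries. The groups did not overlap (log2 fold change -1.10, SE 0.06, adjusted p = 6.93e-06). Ly6e was the most abundant of the 39 genes in CPM, at 2132, 2335 and 2210.3 CPM in the unstimulated libraries and 1076, 1488 and 1339 CPM in the CL097 libraries. Its groups did not overlap either (log2 fold change -0.79, SE 0.08, adjusted p = 8.92e-05).

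Of the 7 tested genes in the remaining group, 3 were called lower, where 25.8% of all tested genes were. Sp100, a component of the nuclear bodies that silence viral DNA, was at 697, 939.7 and 986 CPM in the unstimulated libraries and 267, 451 and 437 CPM in the CL097 libraries. The groups did not overlap (log2 fold change -1.21, SE 0.07, adjusted p = 9.61e-06). Xaf1, known for binding the apoptosis inhibitor XIAP, was at 58.0 ± 12.3 CPM unstimulated and 40.1 ± 12.1 CPM under CL097 (log2 fold change -0.56, SE 0.09, adjusted p = 0.00136, limma paired, and 0.0889 without pairing), and its log2 fold change was -0.47, within the fold threshold, without number 1. Ifi44 was at 93.3 ± 38.2 CPM unstimulated and 61.2 ± 13.1 CPM under CL097 (log2 fold change -0.55, SE 0.11, adjusted p = 0.00416, limma paired, and 0.134 without pairing), and without number 3 its log2 fold change was -0.38. Rtp4 (-0.38), Tor3a (-0.29), Lgals3bp (0.23) and Ifi35 (0.38) had log2 fold changes within the threshold.

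In most of these genes the replicate libraries differed, with number 1 lowest. In both conditions number 1 was the lowest library in 35 of 38 genes (92.1%), where it was lowest in 30.5% of all tested genes among unstimulated libraries and in 29.1% among CL097 libraries. The median difference of number 1 from the mean of numbers 2 and 3 was -0.67 log2 in unstimulated and -0.79 log2 in CL097 libraries, and 0.04 and 0.08 over all tested genes. Number 3 was the highest in 35 genes (92.1%, against 30.1% of all genes) among unstimulated libraries and in 23 (60.5%, against 25.2%) among CL097 libraries. In 31 of the 38 genes the 3 unstimulated libraries spanned a wider range than the size of the log2 fold change. A range of 3 values is a wider measure than a difference of means. The same count was not made over all tested genes, so it is not known whether it is particular to these genes. The deposited values carry a shift per gene that both libraries of a number share and that cancels only within a number, so the size of these differences between numbers includes that shift.

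The median difference was negative in each pair. Over the 38 genes it was -0.41 log2 in pair 1, -0.15 in pair 2 and -0.53 in pair 3, with 28, 24 and 31 genes lower under CL097. Over all tested genes the medians were 0.022, -0.003 and -0.0145 log2, and 49%, 50.1% and 50.5% of genes were lower. The largest single difference between numbers was in Rsad2, whose unstimulated library 1 was 2.95 log2 below the mean of the other unstimulated libraries.

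**Figure D4:**
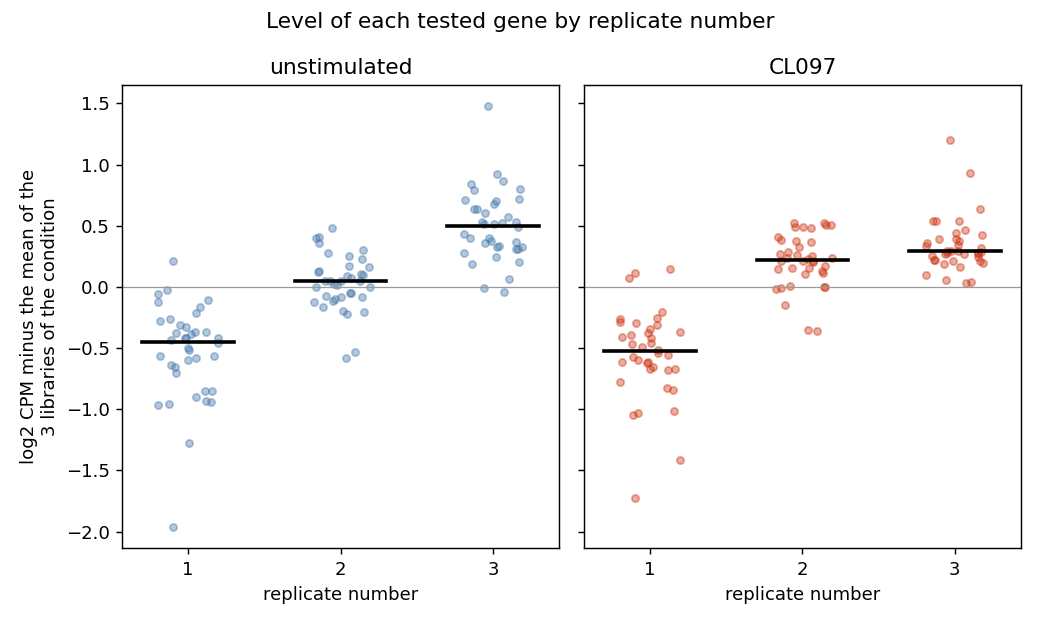
Deposited log2 CPM of each of the 38 tested genes minus its mean over the 3 libraries of the condition (y axis), by replicate number, with unstimulated libraries left and CL097 libraries right. Points are genes and bars are medians; the number 1 libraries lie lowest in both conditions.

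Markers of other cell types also differed between the numbers and between the groups. The B cell receptor genes Cd79a and Cd79b were abundant in every library, at 1879.5 ± 154 CPM unstimulated and 452 ± 42.9 CPM under CL097 for Cd79a and 1801 ± 108 CPM unstimulated and 429 ± 92.4 CPM under CL097 for Cd79b (SD, n = 3), and both were called lower. The monocyte and macrophage list (9 of 10 genes measured) summed to 173, 392 and 676 CPM in unstimulated libraries 1 to 3 and to 102, 203 and 376 CPM in CL097 libraries 1 to 3. It was thus lowest in number 1 in both conditions. In the paired fit 6 of its 9 genes were called lower (25.8% of all tested genes), and 1 without pairing (23.6% of all tested genes). The erythroid list summed to 27.2, 799 and 932 CPM in unstimulated and to 49.5, 1189.9 and 2077 CPM in CL097 libraries, lowest in number 1 as well. Of its 4 tested genes 3 were called higher in the paired fit (25.9% of all tested genes), and 1 without pairing (24% of all tested genes). The part of these cells in the values of the interferon-stimulated genes was not tested, and in bulk RNA fewer cells of a type and less RNA per cell cannot be told apart.

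Further lists of other cells were summed in the same way. The plasmacytoid dendritic cell list summed to between 49.1 and 66.5 CPM in unstimulated and between 28.3 and 41.0 CPM in CL097 libraries. Most of that sum was 1 gene, Pacsin1, at 56.1 ± 10.3 CPM unstimulated and 31.8 ± 6.87 CPM under CL097. Pacsin1 was the 1 gene called lower of 4 tested (25%, against 25.8% of all tested genes). The defining gene of the list, Siglech, was at 1.05 ± 0.828 CPM unstimulated and 0.936 ± 0.671 CPM under CL097 (SD, n = 3) and had no call. The neutrophil list summed to between 3.82 and 12.8 CPM in unstimulated and between 3.68 and 10.1 CPM in CL097 libraries. T cell defining genes Cd3d, Cd3e and Cd3g were under the filter, and the T cell list summed to between 46.6 and 91.3 CPM, nearly all of it Lck. Cd8a, another T cell gene, was at 0.281 ± 0.217 CPM unstimulated and 1.74 ± 0.518 CPM under CL097 and called higher. Its unstimulated values were 0.0384, 0.455 and 0.351 CPM, so it passed the filter of 0.5 CPM only through the CL097 libraries. Its call is therefore not read as a result. The NK cell list stayed between 3.06 and 5.10 CPM. The conventional dendritic cell list, of which Xcr1, Clec9a, Clec10a and Cd209a were under the filter, summed to between 24.3 and 45.0 CPM in unstimulated and between 72.0 and 92.2 CPM in CL097 libraries. Most of that difference was 1 gene, Zbtb46, at 8.22 ± 1.74 CPM unstimulated and 47.7 ± 9.23 CPM under CL097 and called higher, while Flt3 had no call. The plasma cell list summed to between 362 and 390.2 CPM in unstimulated and between 147 and 163 CPM in CL097 libraries. Of its 4 tested genes 3 were called lower (75%, against 25.8% of all tested genes).

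Interferon transcripts themselves were scarce. Of 21 ligand genes 19 were measured and only Ifng, the type II interferon, passed the filter. It was at 0.213, 0.584 and 0.802 CPM in the unstimulated libraries and 1.47, 2.10 and 2.06 CPM in the CL097 libraries and was called higher (log2 fold change 2.00, SE 0.40, adjusted p = 0.00352). Unstimulated library 1 was under 0.5 CPM, so Ifng passed the filter only with the CL097 libraries counted. The call of Ifng is therefore not read as a result. Ifnb1, the first type I interferon that most cells make, was at 0.0373, 0.152 and 0.234 CPM in the unstimulated libraries and 0.0373, 0.371 and 1.00 CPM in the CL097 libraries. Libraries 2 and 3 were higher under CL097 and number 1 had the same value in both conditions, near the floor of the files, and Ifnb1 was not tested. Ifnl2, a type III interferon named here after its values were seen, was at 0.0320, 0.0279 and 0.0308 CPM in the unstimulated libraries and 0.231, 0.411 and 1.13 CPM in the CL097 libraries, also under the filter. No interferon alpha gene passed the filter. The depth reached is unknown, so low values give no limit on how little of these transcripts was present.

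Several genes of the interferon receptors and their signal chain were lower, while Ifnlr1 was higher. Ifnar1 was at 200.4, 226 and 201 CPM in the unstimulated libraries and 102, 121 and 119 CPM in the CL097 libraries and the groups did not overlap (log2 fold change -0.88, SE 0.07, adjusted p = 3.29e-05). Ifnar2, the other chain of the type I receptor, had a log2 fold change of 0.31 with no call. Ifnlr1, the specific chain of the type III receptor, rose from 2.35 ± 0.514 to 32.7 ± 4.58 CPM (SD, n = 3; log2 fold change 3.81, SE 0.21, adjusted p = 6.26e-06), the largest rise in the receptor list. Its partner Il10rb fell (log2 fold change -0.61, SE 0.09, adjusted p = 0.000704). In the receptor list 1 of 6 genes was called higher (16.7%, against 25.9% of all tested genes) and 3 lower (50%, against 25.8%).

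Behind the receptor, the kinase gene Tyk2 fell (log2 fold change -1.35, SE 0.09, adjusted p = 1.18e-05). Stat2, a member of the complex that binds the ISRE, was at 179, 217 and 225 CPM in the unstimulated libraries and 81.9, 139 and 130.3 CPM in the CL097 libraries and fell as well (log2 fold change -0.85, SE 0.10, adjusted p = 0.000219). Irf9, the DNA-binding member of that complex, had a log2 fold change of -0.43, under the fold threshold.

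On the route from TLR7 to interferon 4 of 13 genes were called lower (30.8%, against 25.8% of all tested genes) and 1 higher (7.69%, against 25.9%). Irf7, the factor that drives interferon alpha genes and is itself interferon-induced, was at 136, 249 and 287 CPM in the unstimulated libraries and 73.4, 148 and 154 CPM in the CL097 libraries. It was lower in every pair, with groups that overlapped (log2 fold change -0.85, SE 0.06, adjusted p = 2.79e-05, limma paired, and 0.0662 without pairing). Irf5 (log2 fold change -0.68, SE 0.07, adjusted p = 0.000127) fell too, and Ikbke, a kinase for IRF3 and IRF7, rose (log2 fold change 1.28, SE 0.21, adjusted p = 0.00137). Among 7 genes that restrain the interferon signal, 3 were called higher (42.9%, against 25.9% of all tested genes) and 2 lower (28.6%, against 25.8%). Socs3, a feedback inhibitor of JAK kinases best known for its part in interleukin signalling, was at 11.8, 9.04 and 8.24 CPM in the unstimulated libraries and 344, 302 and 468 CPM in the CL097 libraries (log2 fold change 5.25, SE 0.17, adjusted p = 1.19e-06). Socs1, the feedback inhibitor best known for interferon receptors, rose as well (log2 fold change 1.16, SE 0.19, adjusted p = 0.00145). Irf2, a repressor at ISRE sequences, fell (log2 fold change -1.43, SE 0.15, adjusted p = 0.000126), as did the phosphatase gene Ptpn6 (log2 fold change -1.25, SE 0.08, adjusted p = 1.43e-05).

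A longer list of 68 further interferon-stimulated genes also had more genes called lower than higher. 58 were tested, 6 were called higher (10.3%, against 25.9% of all tested genes) and 21 lower (36.2%, against 25.8%), with a median log2 fold change of -0.31. Without pairing 4 were called higher (24% of all tested genes) and 17 lower (23.6% of all tested genes). Ifitm2, a relative of Ifitm3, was at 6.58, 9.29 and 10.9 CPM in the unstimulated libraries and 43.4, 39.5 and 46.6 CPM in the CL097 libraries (log2 fold change 2.30, SE 0.15, adjusted p = 1.38e-05). Cxcl10, a chemokine for T cells, had the next largest rise (log2 fold change 2.27, SE 0.17, adjusted p = 2.37e-05). The largest falls were in Samhd1, which depletes nucleotides (log2 fold change -2.67, SE 0.09, adjusted p = 1.21e-06), and Ifi203, a member of the family that includes cytosolic DNA sensors (log2 fold change -2.06, SE 0.14, adjusted p = 1.79e-05). In this list number 1 was the lowest unstimulated library in 49 of the 58 genes (84.5%, against 30.5% of all tested genes).

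**Figure D5:**
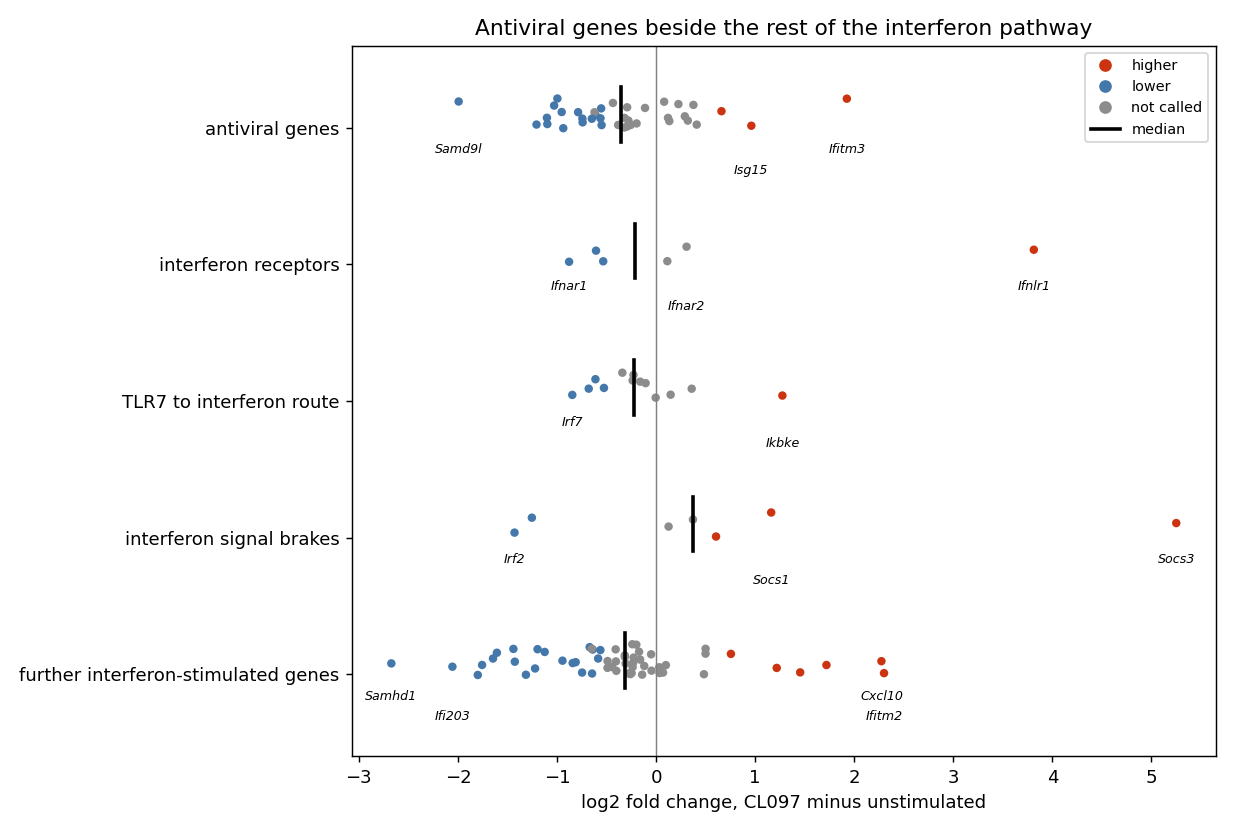
Log2 fold change (x axis, CL097 minus unstimulated) of the tested genes of the receptor, TLR7 route, signal brake and further interferon-stimulated lists and of the 38 interferon-stimulated antiviral genes, 1 point per gene coloured by call. Socs3 and Ifnlr1 lie farthest to the right, and the receptor, TLR7 route and interferon-stimulated lists have more points called lower than called higher.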

How the data were processed

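Per the submitters' processing notes, the mouse build was mm10 and the tools were limma, Subread 2.0.1 (featureCounts), STAR 2.6.1a, Trim Galore 0.6.5 and FastQC 0.11.7. Libraries came from a stranded poly(A) kit. The authors deposited log2 CPM per gene symbol, made by voom and quantile normalization, 1 file for each library. Which annotation was counted, and with which strand setting, is not given in the sources used here. A target depth is stated in the study's methods. The depth each library reached is unknown, since no read counts were recovered, and no counting interval is given.

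The deposited log2 values of 11844 genes (at least 0.5 CPM in at least 3 libraries) were fitted in limma 3.58.1 (R 4.3.3) with condition and replicate number as terms and a mean-variance trend, with no pseudocount. P-values are two-sided and adjusted by Benjamini-Hochberg over all tested genes. The fit was tested on simulated data that had a shift per replicate number built in. That test therefore cannot show whether pairing by number suits the measured data. The labels give 3 mice as the source of the stimulated and unstimulated cells, and do not tie a number to a mouse. Deviations of same-numbered libraries from their group means correlated at 0.568, 0.326 and 0.458 (across genes, which are not independent), all over the limit of 0.1. In each number 2655 to 3108 of 17935 genes had the same value in both libraries. The numbers were therefore taken as pairs. The shift per gene that both libraries of a number share can by itself give such correlations and identical values. They therefore do not show that a number marks a mouse. P-values of the paired fit measure the spread of the differences within a number, and those without pairing the spread between libraries of a condition. Every called gene and every gene whose call differs between the fits is named, with the largest changes of each pathway list. The genes and lists were chosen with earlier results of these data known. Coordinates are from GENCODE M21 (GRCm38, also called mm10). Ddx58 is the symbol used here for Rigi. Alternatives were the unpaired fit, each number left out, other filters, a pseudocount of 1, other normalizations, variance models and fold thresholds. Some listed genes are not reported here.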

Additional observations from a re-analysis of the deposited data

How the results depend on the processing

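The median log2 fold change of the genes stayed negative under every alternative run. Against 3 genes called higher and 16 called lower, the fit without the replicate block called 1 and 7 (24% and 23.6% of all tested genes). Its lower calls, 7 of 38, were no more frequent than among all genes. The fit with no filter called 1 and 8 (14% and 13.6%). A log2 fold threshold of 1 left 1 and 5 (13.9% and 14.6%), so that the lower calls, 5 of 38, were then no more frequent than among all genes. With no fold threshold 7 were called higher and 24 lower (33.6% and 33%). Leaving out each number in turn gave 3 to 3 genes called higher (23.8% to 26.4% of all tested genes), 12 to 17 called lower (23.2% to 26.7%) and a median from -0.49 to -0.29. Of the 19 called genes, 5 (Ifitm3, Samd9l, Sp100, Ly6a and Herc6) kept their call under all 13 alternatives, and 7, with Ly6e and Ddx58 added, under all but the fold threshold of 1. With each number left out, 4 genes without a call changed sign in their log2 fold change: Mx1 ranged from -0.26 to 0.088, Usp18 from -0.11 to 0.24, Bst2 from -0.052 to 0.26 and Parp12 from -0.087 to 0.53. Oasl2 was called lower without number 1, with the strict filter and without the variance trend, Zbp1 was called lower without number 2, and Cmpk2 and Ifit2 lost their call without the variance trend and with robust variances. The cause was not tested. The depth reached, which is unknown, limits the low genes, above all Oas1g and the interferon ligands, for which no detection limit can be given.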
